A study of Mus musculus with 4 samples.

Results

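The cells described here are macrophages of mouse skin tumours that carried RNA of a set led by Mrc1 and F13a1, not each gene in every cell, and little or no Mmp12 RNA. They were picked from 4 droplet libraries by a rule on unique molecular identifiers (UMIs, the tags that count single RNA molecules). A barcode had to hold at least 200 genes, under 20% mitochondrial UMIs and at least 5 UMIs of the complement genes C1qa, C1qb and C1qc together. It further needed at least 3 UMIs of Mrc1, F13a1, Fcrls and Folr2 together, at most 1 of Mmp12, none of Cd3e, and under 2% of its UMIs from S100a8 and S100a9. The rule kept 3142 of 50887 cells, and these are called the selected macrophages below. The levels of those genes chose the cells, so they are given as a description and support nothing.

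Macrophages of this kind are the scavenging cells of connective tissue. Mrc1 encodes the mannose receptor, F13a1 the A chain of coagulation factor XIII, Folr2 a folate receptor and Fcrls a scavenger molecule of the Fc receptor-like family. In skin, such cells lie along vessels and between collagen fibres, take up dead cells, proteins and iron, and release chemokines that draw in other leukocytes. Blood monocytes, which carry Ccr2, can renew them.

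All 4 libraries came from LKPR mice, which carry Lgr5CreER, KrasLSL-G12D, p53fl/fl and Rosa26-YFP. Cre recombinase, driven by the Lgr5 promoter, is switched on by tamoxifen, so recombination starts from Lgr5-expressing cells and not from macrophages. Every mouse received tamoxifen, as 4 injections of 2.5 mg from postnatal day 28, and tumours were seen 7 to 9 weeks later. The NP137 group, 2 libraries, was injected with NP137, an antibody against netrin-1, which began 4 weeks after tamoxifen and was repeated every 2 days at a dose of 10 mg/kg. The control group, also 2 libraries, had skin tumours of the same model, and the labels do not say whether it received a control injection. All live cells were sorted and 10000 cells were loaded per library. Whether each library is its own animal is not stated in the labels. A p-value here therefore measures the spread between 4 libraries, which may be in part technical. That spread also holds the differences in sex-linked RNA given below.

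The libraries did not stand on equal ground. Control 1, control 2, NP137 1 and NP137 2 held 1646, 134, 183 and 1179 selected macrophages, with a median of 4160, 10624, 2314 and 6932 UMIs per cell. Summed over these cells, the libraries gave 8737003, 1650737, 492918 and 10503486 UMIs. Of all barcodes, 322 occurred in more than 1 library, and 27 selected macrophages had such a barcode, but no barcode was a selected macrophage in more than 1 library.

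Control 2 stood apart in its sex-linked RNA. Of its 5679 kept cells, 2885 carried RNA of Y-linked genes without Xist, the RNA of the inactive X chromosome, and 18 carried Xist alone. In control 1 these counts were 2 and 7473 of 11677, so the control libraries differed in sex-linked RNA. They were 2805 and 4787 of 16617 in NP137 1, and 0 and 12045 of 16914 in NP137 2. Outside the selection, Xist was found in 21 of 5545 kept cells of control 2 (0.379%). Among its selected macrophages 17 of 134 carried Xist (12.7%), and 10 of these had no UMI of a Y-linked gene. The 17 cells had a median of 16965 UMIs, against 10156 in the other 117. They held 3601 CPM (UMIs scaled to the same total per library) of the collagen gene Col1a1 against 180 in the others, and 349 CPM of the lysozyme gene Lyz1 against 6.70. None of the 17 barcodes occurred in another library, and 2 were marked as doublets. NP137 1 was mixed, with 41 selected macrophages that carried Xist alone and 35 that carried Y-linked RNA alone. The gene group counts that changed without the 17 cells, and the named values that rested on them, are given both ways. Leaving these cells out was chosen after seeing the data, and control 2 then carries the scaling of its own fit.

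Macrophage markers outside the rule were set beside the cells with fewer than 5 C1q UMIs. The C1q limit of the rule splits off those cells, so higher macrophage markers are a description. They do not set the selected cells apart from other C1q-positive cells. Pf4, platelet factor 4, a chemokine that tissue macrophages also make and that the rule did not use, stood at 899, 1110, 1736 and 1058 CPM in control 1, control 2, NP137 1 and NP137 2. In the cells with fewer than 5 C1q UMIs it stood at 13.3, 6.05, 3.13 and 28.9 CPM. Adgre1, the F4/80 antigen of mouse macrophages, stood at 192, 190, 231 and 235 CPM against 1.26 to 6.46 in those other cells. CPM here are UMIs summed over the selected macrophages of a library and scaled to CPM with TMM factors, which even out composition between libraries. The 9 macrophage markers outside the rule summed to 13180, 17490, 10470 and 12620 CPM, and none was at 0 in any library.

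Some of the rule genes differed widely between libraries of 1 group. Of the set of 4, Mrc1 stood at 822, 630, 1007 and 737 CPM in control 1, control 2, NP137 1 and NP137 2. F13a1 stood at 659, 143, 326 and 390 CPM, with 79.9 in control 2 without the 17 cells. Fcrls stood at 507, 118, 633 and 69.9, and Folr2 at 265, 248, 189 and 514. Fcrls was thus high in 1 library of each group, and F13a1 was highest and lowest within the control group. With each cell thinned to 2000 UMIs, Mrc1 was seen in 76.4%, 62.7%, 71.8% and 69.2% of cells and F13a1 in 62.3%, 14.2%, 21.8% and 42.8%. The thinning left out 115, 0, 73 and 21 shallower cells, and the T cells of the same libraries showed F13a1 in 0% to 1.43%. Without thinning the F13a1 shares were 77.0%, 33.6%, 36.6% and 64.6%. At the edge of the rule, 337 cells had exactly 3 UMIs of the set of Mrc1, F13a1, Fcrls and Folr2 and 374 C1q-positive cells had 2. At the Mmp12 limit, 139 cells had 1 UMI and 39 had 2. Just inside the first limit Pf4 stood at 487, 93.8, 1275 and 437 CPM, and just outside at 438, 226, 792 and 470.

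RNA of other cell types was present in the selected macrophages at levels that differed between libraries. The 8 fibroblast markers summed to 2539, 2862, 1207 and 6702 CPM in control 1, control 2, NP137 1 and NP137 2, and none was at 0. Without the 17 Xist-bearing cells the control 2 sum was 647. The 11 keratinocyte markers summed to 1339, 1877, 4164 and 1757 CPM, again with none at 0. The 6 B and plasma cell markers summed to 5.97, 2.42 and 10.5 CPM in the first 3 libraries and to 551 in NP137 2, with 2, 5, 4 and 0 of the 6 at 0. Igkc, the antibody kappa light chain and not on that list, reached 6558 CPM in NP137 2. In each library the sums of fibroblast and keratinocyte markers were lower than in cells with fewer than 5 C1q UMIs. Doublets were not removed, and 11.1%, 8.96%, 12% and 21.5% of the selected macrophages were among the highest Scrublet scores of their library. The part of these RNAs in the results below was not tested. The cells with fewer than 5 C1q UMIs are called the other cells below.

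**Figure D1:**
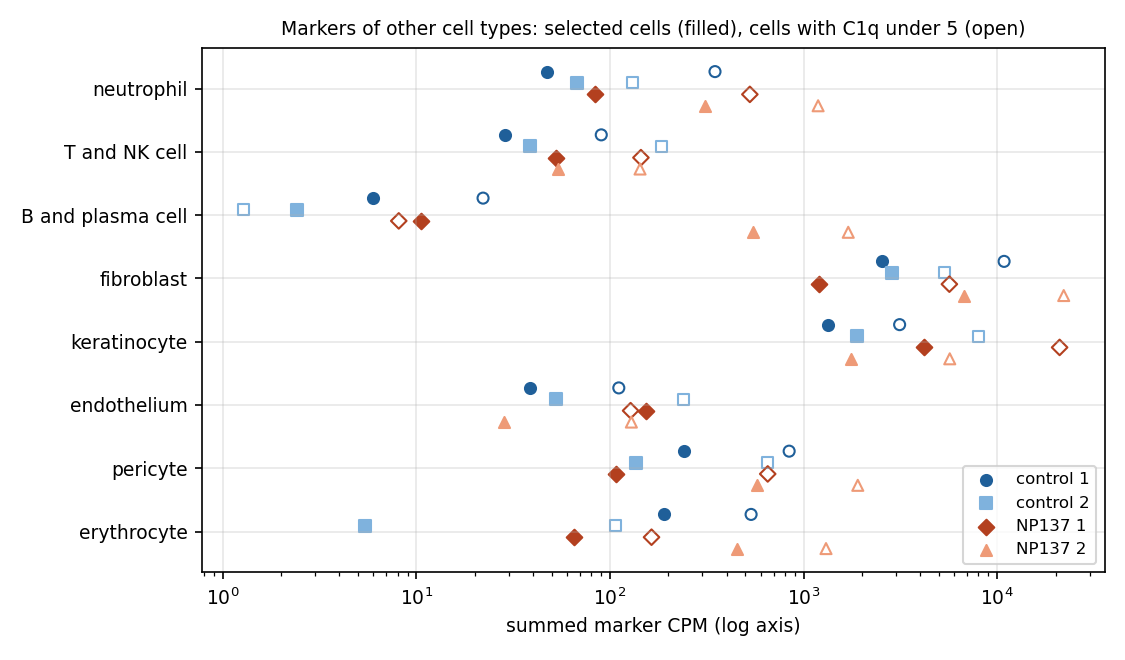
Summed CPM of marker genes of 8 other cell types on a log axis, by library, in the selected macrophages (filled) and in cells with fewer than 5 C1q UMIs (open). Fibroblast and keratinocyte sums are lower in the selected macrophages of every library, and B and plasma cell markers are high in NP137 2 alone.

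How many of the tumour cells were such macrophages varied more within a group than between the groups. They made up 14.1% of kept cells in control 1 (95% exact binomial interval 13.5% to 14.7%) and 2.36% in control 2 (1.98% to 2.79%). In NP137 1 they made up 1.10% (0.948% to 1.27%) and in NP137 2 6.97%. The intervals cover counting error only. The group means were 8.23% ± 8.30 (SD, n = 2) in control and 4.04% ± 4.15 (SD, n = 2) under NP137, and the groups overlapped (exact permutation test, 2-sided, p = 0.667, where 0.333 is the smallest this design allows). Without control 1 the difference changed sign, from 4.19 points lower under NP137 to 1.68 points higher.

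Among C1q-positive cells the order was different. The selected macrophages were 69.7% of C1q-positive cells in control 1, 57.0% in control 2, 15.8% in NP137 1 and 54.2% in NP137 2. The groups did not overlap, by a margin of a few points between control 2 and NP137 2 (exact permutation test, 2-sided, p = 0.333, the smallest this design allows). With the 17 Xist-bearing cells of control 2 left out, and likewise with the rule applied to cells thinned to 2000 UMIs, the groups overlapped (p = 0.667 in both, exact permutation test). NP137 1 was also the shallowest library, and a rule that asks for a number of UMIs can select fewer cells where cells are shallow. On thinned cells the share was 55.49% in control 1, 27.98% in control 2, 10.71% in NP137 1 and 36.28% in NP137 2. NP137 1 thus stayed the lowest. The part of depth in these shares was not tested beyond the thinning.

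**Figure D2:**
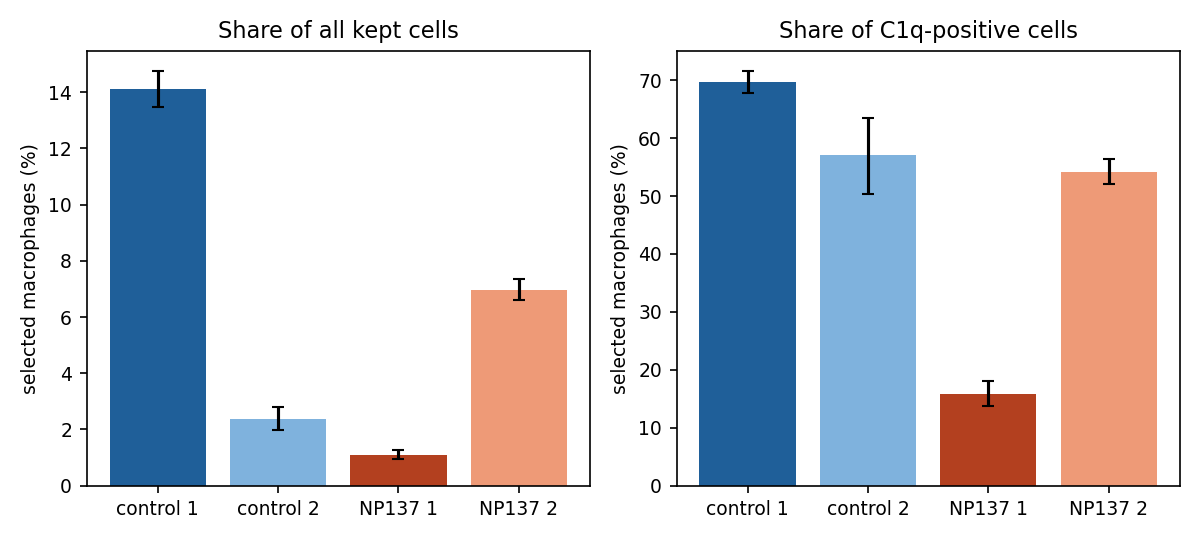
Selected macrophages as a percentage of all kept cells (left) and of C1q-positive cells (right) in each library, with 95% exact binomial intervals. Control 1 holds 14.1% and control 2 2.36% of kept cells, on either side of NP137 2.

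The 20 genes of highest level held general genes such as Tmsb4x, Malat1 and Actb beside genes of macrophage work. Apoe, the apolipoprotein that carries cholesterol out of macrophages, stood at 14086, 15198, 26478 and 10006 CPM in control 1, control 2, NP137 1 and NP137 2. Lyz2, the lysozyme of myeloid cells, stood at 8813, 11733, 4765 and 8243 CPM. Fth1 and Ftl1, the subunits of the iron store ferritin, ranged from 12538 to 19717 and from 6461 to 9123 CPM. Cxcl2, a chemokine for neutrophils, stood at 6577, 6130, 7799 and 6477 CPM, and Ccl2 and Ccl7, chemokines for monocytes and not among the 20, at 887 to 1844 and 744 to 1661 CPM. Cd74, the chain that escorts class II antigen-presenting molecules, stood at 4077, 6528, 9648 and 4940 CPM. The control and NP137 libraries overlapped for Apoe, Cxcl2, Ccl2, Ccl7 and Cd74. Fth1 and Ftl1 lay higher and Lyz2 lower in both NP137 libraries (edgeR adjusted p = 1.00 for each).

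The type I interferon list separated the libraries along a line that was not the treatment. Its 23 genes summed to 562 CPM in control 1 and 782 in NP137 1, but to 2172 in control 2 and 2035 in NP137 2. Bst2, tetherin, which holds budding viruses to the cell, stood at 51.6, 490, 143 and 298 CPM in control 1, control 2, NP137 1 and NP137 2. Irf7, a transcription factor that amplifies the response, stood at 40.5, 235, 69.4 and 217 CPM. In none of the 23 genes did the control and NP137 libraries separate.

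Set beside the Mmp12-positive macrophages, a further C1q-positive class, the selected macrophages had more Lyve1, Cbr2 and Gas6 RNA. The Mmp12-positive cells met the same filters with at least 2 Mmp12 UMIs, and numbered 240, 23, 296 and 307, so that their levels in control 2 rest on 23 cells. Because the rule used these cells' counts, no test is given, and CPM in this comparison carry no TMM factor. Genes named here and in the next paragraph were picked for the same sign in the 4 libraries, so this agreement is no result. Lyve1, the hyaluronan receptor that marks macrophages along vessels, stood at 186, 40.0, 56.8 and 157 CPM in the selected cells and at 5.85, 0, 0 and 5.78 in the Mmp12-positive cells. Cbr2, a carbonyl reductase, stood at 360, 94.5, 126 and 436 CPM against 26.0, 3.04, 9.17 and 27.3. Gas6, the bridge that ties dead cells to the receptors Axl and Mertk, stood at 184, 75.1, 177 and 183 CPM against 46.8, 9.10, 27.5 and 28.4. C4b, a complement component, and the chemokine Ccl7 were higher in the selected cells of every library too.

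The Mmp12-positive cells had more Dcstamp, Itgax and Il1r2 RNA. Dcstamp, a membrane protein needed when macrophages fuse, stood at 3.32, 6.06, 16.2 and 5.05 CPM in the selected cells and at 68.3, 85.0, 57.7 and 109 CPM in the Mmp12-positive cells. Ocstamp, its partner in fusion, and Itgax, the integrin CD11c, were lower in the selected cells of all 4 libraries as well. Il1r2, the decoy receptor of interleukin-1, stood at 23.9, 21.2, 114 and 50.6 CPM against 272, 546, 352 and 350. Mgl2, a lectin, and Pgf, placental growth factor, went the same way. In all, 1025 genes outside Xist and Y-linked genes had the same sign in the 4 libraries and a mean of at least 50 CPM in 1 class. Of these, 65 lay over 1 log2 unit higher in the selected cells and 52 over 1 unit lower. The measure was the mean over libraries of the log2 ratio of CPM + 5.

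**Figure D3:**
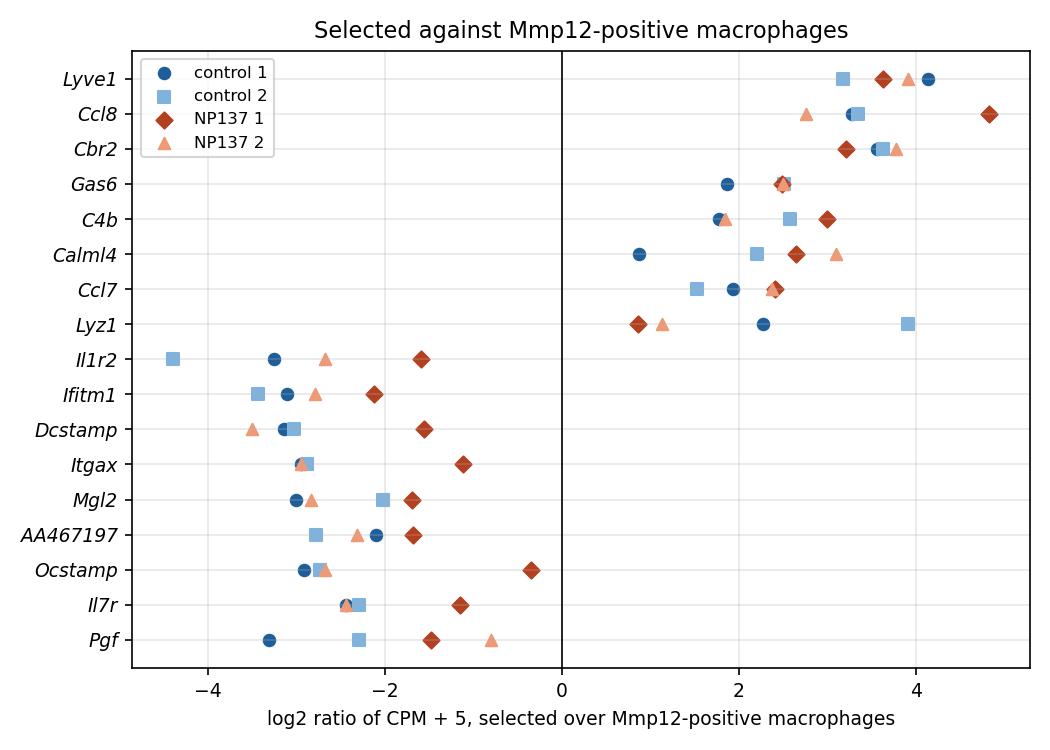
Log2 ratio of CPM + 5 between the selected and the Mmp12-positive macrophages, 1 point per library, for genes the rule did not use. Lyve1, Ccl8 and Cbr2 lie to the right of 0 and Il1r2, Ifitm1 and Dcstamp to the left in all 4 libraries. The genes were picked for the same sign in the 4 libraries.

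The gate meant to give monocytes, with Ly6c2, Ccr2 and Plac8 UMIs and little C1q, did not serve as a comparison. Its leading genes against the selected macrophages included Tagln, Serping1, Rgs5 and Mfap5, which mark smooth muscle, pericytes and fibroblasts. No result is drawn from it.

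By the ratio of variance to mean, not adjusted for level, single cells of the selection differed most in a few genes. Among 1101 genes, counted in cells thinned to 2000 UMIs, the median ratio of variance to mean was 1.07. Apoe and Gm42418, which lead the ranking, averaged 25.0 to 52.1 and 13.6 to 49.4 UMIs per cell. The part of level in the ranking was not tested. The ratio had a median over libraries of 23.4 for Apoe, 19.99 for Gm42418, 19.2 for Ccl8, 17.9 for Cd74 and 11.8 for Cxcl2. The class II genes H2-Ab1, H2-Aa and H2-Eb1, the cytokine gene Il1b and the interferon-induced chemokine Cxcl10 were also among the 15 most variable genes. Ccl8, a chemokine of monocytes and T cells, had the lowest mean of these 5 in each library, at 0.753, 0.231, 3.09 and 3.18 UMIs per cell in control 1, control 2, NP137 1 and NP137 2.

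Cells with a Ccl8 UMI held more C4b, Gas6 and Wfdc17 and less Ccr2 and Arg1 than cells without one. The genes given were picked for the same direction in the 4 libraries, so that this direction is no result. They numbered 220, 9, 35 and 513 thinned cells. Wfdc17, a small secreted protease inhibitor of macrophages, averaged 1.09, 0.778, 3.14 and 3.78 UMIs in cells with Ccl8 and 0.607, 0.264, 1.11 and 1.17 in cells without it. C4b averaged 0.573, 0.778, 0.314 and 0.546 UMIs against 0.275, 0.112, 0.0800 and 0.279. Fcgrt, the neonatal Fc receptor that recycles antibody, averaged 1.09, 1.00, 0.943 and 1.45 against 0.626, 0.232, 0.373 and 0.617. Ccr2 averaged 0.191, 0.444, 0.0571 and 0.292 UMIs in cells with Ccl8 and 0.549, 0.704, 0.187 and 0.594 in cells without it. Arg1, arginase, and Tgfbi, a matrix protein of monocyte-derived cells, were lower in cells with Ccl8 in all 4 libraries as well. Control 2 holds only 9 cells with Ccl8.

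**Figure D4:**
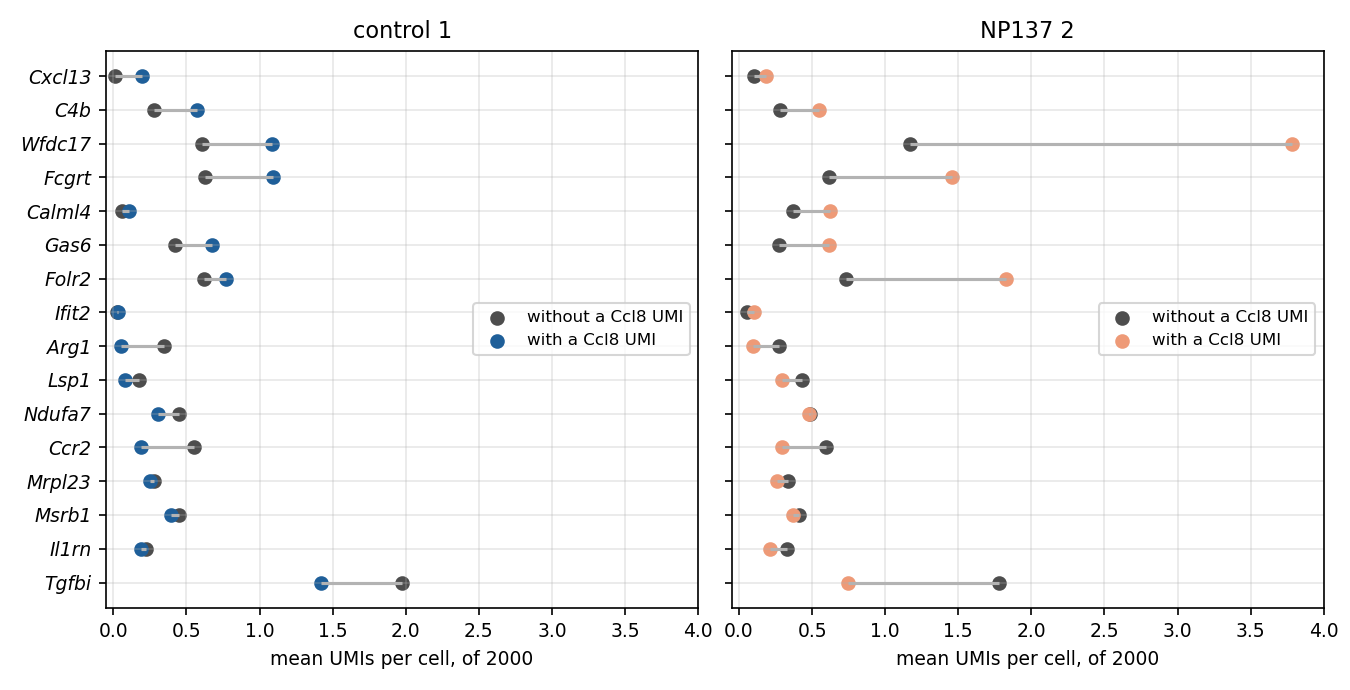
Mean UMIs per cell, of 2000, in selected macrophages with and without a Ccl8 UMI, in control 1 and NP137 2, the libraries with most such cells. Wfdc17, C4b, Fcgrt and Gas6 lie higher and Arg1, Ccr2 and Tgfbi lower in cells with Ccl8.

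Cells with a Lyve1 UMI held more Ccl6 and Gas6 and less of class II genes and Il1b. Genes given for Lyve1, Arg1 and Mki67 were again picked for the same direction in the 4 libraries, so that this is no result. In control 1 and NP137 2, 273 and 210 thinned cells carried Lyve1, and in control 2 and NP137 1 only 3 each. The next values are for control 1 and then NP137 2. Ccl6, a chemokine of myeloid cells, averaged 3.51 and 12.2 UMIs in cells with Lyve1 and 0.973 and 3.96 in cells without it. Gas6 averaged 0.799 and 0.8 against 0.381 and 0.344. H2-Ab1, a class II chain that presents antigen to CD4 T cells, averaged 1.03 and 1.96 UMIs against 3.80 and 5.22. Il1b averaged 0.978 and 0.929 against 2.71 and 2.20. Cells with an Arg1 UMI numbered 228, 17, 4 and 86 of the thinned cells, so that NP137 1 rests on 4 cells. They had less H2-Ab1 and Cd74, and more of Clec4d, a lectin receptor, and F10, coagulation factor X. A Mki67 UMI, the mark of cycling cells, was found in 140, 10, 11 and 119 thinned cells, and these held 1.12, 1.20, 0.818 and 1.13 UMIs of Stmn1, a regulator of the spindle, against 0.0978, 0.145, 0.152 and 0.172 in the rest.

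The comparison of NP137 with control asks what the selected macrophages express when netrin-1 is blocked. After Benjamini-Hochberg adjustment, edgeR (quasi-likelihood F test) had 0 of 11819 genes that passed an adjusted p of 0.05 (0% called), while 462 (3.91%) had an unadjusted p under 0.05. DESeq2 called 25 (0.212%), 21 higher and 4 lower under NP137, and edgeR with the sample number as a replicate block called 15 (0.127%). The smallest adjusted p of edgeR was 0.0682. With 2 libraries a group, simulated data of the same spread on 11272 genes had 94% of 4 log2 unit changes recovered, 36.8% of 2 unit changes and 3.28% of 1 unit changes, while 20 unchanged genes were called. Without a test that passed, genes are given by their values, and by whether both NP137 libraries lay above or below both control libraries, as 1811 (15.3%) and 1892 (16%) of the 11819 genes did.

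Ccl8 was among the 10 genes named upward by the rule. It stood at 303 CPM in control 1 and 138 in control 2, and at 2079 in NP137 1 and 1359 in NP137 2. Both NP137 libraries lay above both controls, with 45.8 and 79.8 CPM in the other cells of the NP137 libraries. The log2 difference was 2.95 (SE 0.45, n = 2 and 2), the edgeR adjusted p was 0.505 and the DESeq2 adjusted p was 4.5e-08. After thinning, a Ccl8 UMI was held by 14.4% of cells in control 1, 6.72% in control 2, 31.8% in NP137 1 and 44.3% in NP137 2, against 1.43% to 13% of T cells. In NP137 1 the cells with Xist alone held 1917 CPM of Ccl8 and those with Y-linked RNA alone 1894. Its neighbours Ccl2 and Ccl7 in the same chemokine cluster did not separate the groups, and Ccl12, a monocyte chemokine, lay lower in both NP137 libraries, at 737 and 732 against 406 and 537 CPM (edgeR adjusted p = 1.00).

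Wfdc17 stood at 288 and 167 CPM in control and at 1038 and 1037 CPM under NP137. The NP137 libraries were almost equal and both above the controls. In the other cells Wfdc17 stood at 128 and 52.6 CPM in control and 229 and 261 under NP137, also without overlap. In the selected macrophages the log2 difference was 2.18 (SE 0.32), with an adjusted p of 0.435 by edgeR and 1.3e-05 by DESeq2. Leaving out the 17 Xist-bearing cells moved control 2 to 140 CPM and the difference to 2.27.

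Wfdc17 was also 1 of 2 genes whose NP137 effect differed between the 2 macrophage classes. The test of that difference, an interaction term over 9971 genes with a term per library, called 2 genes (0.0201%). In the Mmp12-positive cells Wfdc17 stood at 448 and 231 CPM in control and 245 and 336 under NP137, so that the groups overlapped there. The effect in the selected macrophages was larger by 2.39 log2 units (SE 0.26, edgeR adjusted p = 0.00766). Over 8 alternative settings this value lay between 2.15 and 2.63, with an edgeR adjusted p of at most 0.0418. The other gene was Nos2, inducible nitric oxide synthase, at 0.758, 0, 4.12 and 11.2 CPM in the selected cells and 33.5, 33.8, 3.88 and 16.7 CPM in the Mmp12-positive cells. The other cells held 5.43, 3.48, 5.87 and 25.0 CPM, above the selected cells in each library, which held 7, 0, 2 and 121 Nos2 UMIs. The fitted size, with a library at 0, depends on the prior count (difference of effects 5.19, SE 0.70, edgeR adjusted p = 0.0384). Its adjusted p rose to 0.0888 without control 1 and to 0.392 without NP137 2, and to 0.0752 without marked doublets. The interferon-induced genes Rsad2 and Ifit2 had the next smallest p among those the naming rule took (edgeR adjusted p = 0.136 and 0.151).

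Cxcl13, a chemokine for B cells, stood at 14.0 and 19.95 CPM in control and 90.4 and 71.2 under NP137 (log2 difference 2.26, SE 0.32, edgeR adjusted p = 0.435). At equal cell number the log2 difference turned to -0.41. Few cells carried it, 23, 1, 6 and 66 without thinning. After thinning 0.914%, 0.746%, 0.909% and 2.68% of cells did, and 3.61% of the T cells of NP137 2. All of its UMIs in control 2 lay in the 17 Xist-bearing cells, in 1 cell, so that control 2 falls to 0 without them. In NP137 1 it stood at 350 CPM in cells with Xist alone and at 0 in cells with Y-linked RNA alone.

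**Figure D5:**
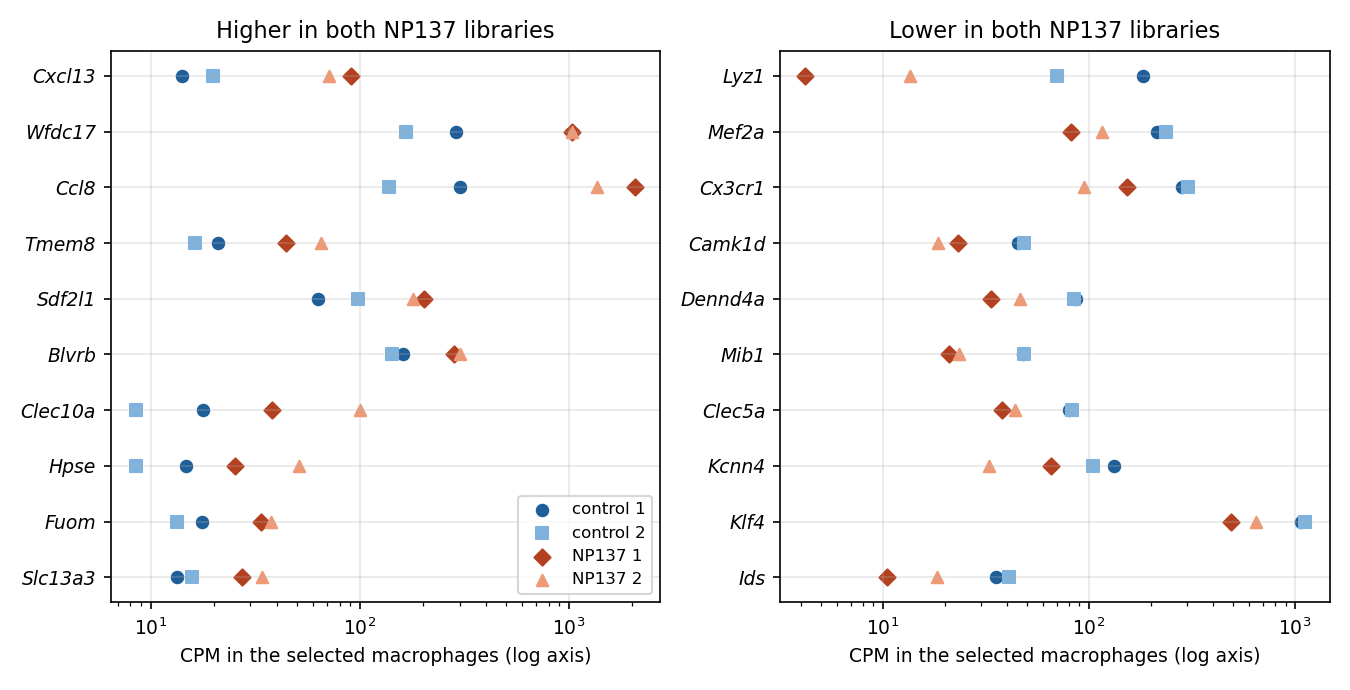
CPM in the selected macrophages of each library on a log axis, for the 10 genes per direction named by rule for NP137 against control. The groups do not overlap for any of the 20, and none passed edgeR's adjusted p of 0.05.

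The other genes named upward did different things. Clec10a, a galactose-binding lectin, stood at 17.8 and 8.46 CPM in control and at 37.8 and 99.9 under NP137. Blvrb, biliverdin reductase B of haem breakdown, stood at 161 and 143 against 282 and 302 CPM. Sdf2l1, a chaperone component of the endoplasmic reticulum, stood at 62.8 and 98.5 against 204 and 180 CPM. Tmem8, Hpse (heparanase), Fuom (fucose mutarotase) and Slc13a3 (a dicarboxylate transporter) stood between 8.46 and 20.9 CPM in control and between 25.2 and 65.2 under NP137. Their log2 differences lay between 0.94 and 2.40. In NP137 1 Hpse, Slc13a3, Fuom, Clec10a and Tmem8 rested on 12, 13, 16, 18 and 21 UMIs.

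Downward, the receptor Cx3cr1 and the regulators Mef2a and Klf4 were among the named genes. Cx3cr1, the fractalkine receptor of resident macrophages and patrolling monocytes, stood at 281 and 304 CPM in control and 153 and 95.2 under NP137 (log2 difference -1.27, SE 0.30, edgeR adjusted p = 0.897). In thinned cells it was seen in 43.8% of cells in control 1, 44.8% in control 2, 20.9% in NP137 1 and 14.6% in NP137 2, against 0% to 12.9% of T cells. Mef2a, a transcription factor, stood at 215 and 236 against 82.0 and 116 CPM, and Klf4, a factor of monocyte and macrophage maturation, at 1064 and 1114 against 490 and 644. Clec5a, a receptor of myeloid activation, stood at 80.2 and 82.8 against 37.8 and 43.8 CPM. Kcnn4, a potassium channel, Camk1d, a calcium-dependent kinase, Dennd4a, Mib1 and Ids, an enzyme of the lysosome, also lay lower in both NP137 libraries. In NP137 1 Ids, Mib1, Camk1d, Dennd4a and Clec5a rested on 5, 10, 11, 16 and 18 UMIs. In the other cells Klf4 stood at 733 and 643 CPM in control and 449 and 435 under NP137. Mef2a stood there at 94.9 and 81.9 against 69.2 and 65.7 CPM. Camk1d, Mib1 and Ids also lay lower there, Cx3cr1 and Kcnn4 overlapped, and Clec5a and Dennd4a lay higher.

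Lyz1 rested in part on the 17 Xist-bearing cells of control 2. It stood at 183 and 70.1 CPM in control and 4.20 and 13.6 under NP137 (log2 difference -3.50, SE 0.65, edgeR adjusted p = 0.768). Without those cells control 2 stood at 6.66 CPM, below NP137 2, so that the groups overlapped, and the log2 difference was -3.13. Lyz1 is a near copy of Lyz2, and whether the counting shared reads between them was not tested.

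Outside the naming rule, some of the smallest p belonged to genes that the other cells also held in quantity, singled out after their values were seen. Saa3, an acute-phase protein of inflamed tissue, stood at 98.4 and 84.6 CPM in control and 769 and 1123 under NP137 (log2 difference 3.37, SE 0.31, edgeR adjusted p = 0.0682, DESeq2 adjusted p = 4.9e-16). In the other cells it stood at 322, 66.5, 530 and 2812 CPM. Gzme, a granzyme, stood at 0.774 and 0 CPM in control and 63.1 and 47.5 under NP137, and at 60.7 and 178 in the other cells of the NP137 libraries. Gzmd and Mcpt8, serine proteases of lymphocytes and basophils, gave the same picture. Whether similar genes of this cluster shared reads was not tested. Mmp9, a gelatinase of neutrophils and macrophages, stood at 20.2 and 7.25 against 141 and 160 CPM, with 284 and 435 in the other cells under NP137. Serpinb2, Fabp4 and Mmp13 likewise were higher in the other cells of both NP137 libraries than in the selected macrophages. What share of these RNAs came from other cells was not tested.

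The promoters of 4 genes that lay higher under NP137 are shown. Ccl8, Wfdc17 and Cxcl13 were among the genes named upward, and Saa3 was among the genes of smallest p in edgeR's comparison of NP137 with control. Each is the 250 bases before the start of transcription in GRCm38.p6, from RefSeq, written 5′ to 3′ along the gene. Ccl8 lies on the plus strand at chr11:82114935-82115184, Wfdc17 on the plus strand at chr11:83703806-83704055, Cxcl13 on the plus strand at chr5:95956689-95956938 and Saa3 on the minus strand at chr7:46715677-46715926. Capitals mark matches to a C/EBP motif (TTGCNNAA) or a TATA box (TATAAA).
Ccl8: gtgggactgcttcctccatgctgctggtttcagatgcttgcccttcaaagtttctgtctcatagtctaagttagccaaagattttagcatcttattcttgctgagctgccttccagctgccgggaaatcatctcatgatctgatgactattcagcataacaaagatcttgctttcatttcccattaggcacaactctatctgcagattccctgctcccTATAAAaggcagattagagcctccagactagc
Wfdc17: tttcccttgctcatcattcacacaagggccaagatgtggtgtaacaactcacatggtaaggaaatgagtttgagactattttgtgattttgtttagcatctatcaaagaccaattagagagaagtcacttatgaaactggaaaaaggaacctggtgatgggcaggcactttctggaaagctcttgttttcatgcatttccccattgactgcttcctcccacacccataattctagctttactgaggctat
Cxcl13: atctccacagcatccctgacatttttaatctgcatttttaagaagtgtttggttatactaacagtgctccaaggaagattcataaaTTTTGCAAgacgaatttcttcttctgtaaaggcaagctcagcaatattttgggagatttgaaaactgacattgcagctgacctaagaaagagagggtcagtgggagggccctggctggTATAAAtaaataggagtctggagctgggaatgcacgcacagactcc
Saa3: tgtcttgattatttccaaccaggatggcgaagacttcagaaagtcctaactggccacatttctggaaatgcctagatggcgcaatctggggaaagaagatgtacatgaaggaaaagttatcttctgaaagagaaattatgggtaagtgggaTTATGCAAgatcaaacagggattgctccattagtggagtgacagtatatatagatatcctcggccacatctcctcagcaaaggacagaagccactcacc

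Motifs were searched on both strands. Ccl8 and Cxcl13 held a TATA box, as did 13% of 27025 promoters of the same length, and Cxcl13 and Saa3 held a C/EBP match, as did 9.55%. No promoter of the 4 held a match to STAT (TTCNNNGAA, in 7.18% of promoters), NF-kB (1.4%), AP-1 (TGANTCA, 6.87%) or PU.1 (GAGGAAGT, 2.44%). A match is a run of letters and not a bound site.

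Gene groups by role had no member that passed edgeR's adjusted p of 0.05. Their counts below are of genes with both NP137 libraries above or below both controls, beside 15.3% and 16% of all genes tested, and of the median log2 difference, beside -0.01 over all genes. The counts describe these libraries and were not tested.

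Among receptors of uptake, 2 of 16 genes lay higher and 1 lower (3 and 1 without the 17 Xist-bearing cells), with a median log2 difference of 0.18. Stab1, stabilin-1, which clears modified proteins, stood at 283, 190, 198 and 169 CPM in control 1, control 2, NP137 1 and NP137 2. Cd163, the receptor for haemoglobin bound to haptoglobin, stood at 71.3, 1.21, 118 and 6.09 CPM, high in the same libraries as Fcrls. Of the 6 antibody receptors, 3 lay higher and none lower. Fcgrt stood at 282 and 134 CPM in control and 393 and 410 under NP137 (log2 difference 0.94, SE 0.37, edgeR adjusted p = 1.00).

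Of 16 genes of iron and haem handling, 9 lay higher and 1 lower, with a median of 0.42. Fth1 stood at 13578 and 12538 CPM in control and 19717 and 14404 under NP137, and Ftl1 at 6461 and 7114 against 9123 and 8480. Hfe, which tunes iron sensing, stood at 77.0 and 68.9 against 179 and 88.8 CPM. Slc40a1, the iron exporter ferroportin, was low, at 1.88 and 0 against 35.7 and 4.73. Of 21 lysosomal genes 7 lay higher and none lower, with a median of 0.21. The protease gene Ctsb stood at 1742 and 1959 against 2314 and 3014 CPM.

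Class II genes overlapped between the groups in 8 of 10 genes. H2-Ab1 stood at 1347, 2369, 3927 and 1909 CPM, and H2-Eb1 at 775, 2189, 772 and 831. Of 21 chemokine genes 3 lay higher and 1 lower. Of 15 cytokine genes 4 lay higher and 1 lower, or 5 and 1 without the 17 cells. Il10, which restrains inflammation, stood at 81.2 and 29.6 against 143 and 109 CPM, and Tnf at 149 and 230 against 109 and 101, while Il1b overlapped at 1052, 726, 1684 and 977.

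Of 24 transcription factors of macrophages none lay higher and 8 lay lower, with a median of -0.24. Without the 17 cells 6 lay lower, since Tcf4 and Bhlhe41 then overlapped. Beside Klf4, Klf6 stood at 1129 and 1270 against 921 and 967 CPM, and Zeb2, a factor needed for resident macrophage identity, at 467 and 531 against 355 and 411. Maf and Spi1, which encodes PU.1, overlapped. Among 20 genes of matrix and proteases 5 lay higher and 8 lower, or 5 and 4 without the 17 cells. Fn1, fibronectin, stood at 1684 and 847 against 153 and 559 CPM, and control 2 at 553 without the 17 cells, where the groups overlapped. Timp1, a protease inhibitor, stood at 192 and 354 against 666 and 524. Fn1 was higher in the other cells than in the selected macrophages of all 4 libraries, and Timp1 of all but NP137 1. Without the marked doublets the log2 difference of Timp1 turned to -1.39.

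Among the genes induced by interleukin-4 or interleukin-13, 4 of 12 lay higher and 2 lower. Retnla, a secreted marker of that response, stood at 0.663 and 3.63 against 21.0 and 23.3 CPM, while the other cells held at most 0.435. These Retnla values rested on 6 and 6 UMIs in control and on 10 and 241 under NP137. Arg1 stood at 138 and 110 against 48.4 and 99.5. Complement genes split 2 higher and 3 lower of 14, and genes that bind and engulf dead cells 3 and 5 of 17, or 2 and 4 without the 17 Xist-bearing cells. Itgam, the integrin chain of complement receptor 3, stood at 241 and 288 against 126 and 194 CPM.

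The ligand that NP137 blocks and its receptors were scarce in the selected macrophages. Ntn1, netrin-1, stood at 19.6 and 3.02 CPM in control and 0 and 0.869 under NP137, against 61.4, 33.0, 8.25 and 4.11 in the other cells. Unc5b, a netrin receptor of vessels, stood at 18.7 and 18.1 CPM in control and 12.6 and 9.66 under NP137. Neo1, another receptor, stood at 14.0 and 6.04 against 8.41 and 7.25. Dcc and Unc5d had no UMI in the selected macrophages of any library. Of 7 genes tested on the netrin list 5 lay lower under NP137, beside 16% of all genes. They were Ntn1, Ntn4, Unc5b, Rgma and Rgmb, with 0, 0, 6, 1 and 4 UMIs in NP137 1. Each of these also lay lower in the other cells of both NP137 libraries than in those of both controls. None of the 7 reached the level of the other cells in the group where it was higher. The share of thinned cells with a UMI of Ntn1 was 3.07%, 0.746%, 0% and 0.259%, below that of T cells in each library.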

How the data were processed

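Single-cell RNA was measured in 4 droplet libraries. The deposited values are whole UMI counts per gene and barcode, made with software version 3.0.2 per the file headers; the submitters' processing notes name mm10 and Seurat 3.1.5. The members and gene lists were chosen with earlier results of these data known. Counts of the selected macrophages were summed per library and tested with edgeR 4.0.16 (quasi-likelihood, robust, TMM factors, filterByExpr, R 4.3.3), with Benjamini-Hochberg adjustment and a threshold of 0.05. DESeq2 1.42.0 was an alternative. The script was tested on simulated data. Shares of cells with a UMI came from cells thinned to 2000 UMIs. Levels against Mmp12-positive macrophages were described without a test. The named genes were the 10 per direction of smallest p with groups that did not overlap, a mean of at least 20 CPM and, in the group where the gene was higher, a level at least that of the other cells, since none passed the threshold. Doublets were kept in the main result and removed, by the highest Scrublet scores, in an alternative. Intervals cover counting error only.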

Additional observations from a re-analysis of the deposited data

Results flagged for a closer look

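The effect of NP137 differed between the selected and the Mmp12-positive macrophages for Wfdc17, by 2.389 log2 units, and for Nos2, by 5.191, each by the test of the difference itself (edgeR adjusted p = 0.00766 and 0.0384).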

How the results depend on the processing

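The difference in share of kept cells ranged from -10.06 to 1.676 points when 1 library was left out, and turned positive at 1.676 without control replicate 1. The difference in share of C1q-positive cells ranged from -47.54 to -9.11. For NP137 against control the number of genes called was 25 with DESeq2, 154 with no filter on low counts, 2 with a stricter selection and 0 to 25 with 1 library left out, 25 without control 2 and 16 without NP137 1. Whether the numbers in the labels pair the libraries could not be decided. The correlation was 0.078 for the same number. With 2 libraries a group the crossed value, -0.078, is its mirror by construction and adds nothing. The replicate block gave 15 genes. For the difference between classes the number called was 67 with no filter, 8 with the replicate block, 7 without marked doublets and 9 to 29 with 1 library left out. Cxcl13 turned to -0.41 and Neo1 to 0.25 at equal cell number, Timp1 to -1.39 without marked doublets, Neo1 ranged from -0.90 to 0.31 and Adora2b from -0.067 to 1.06 with 1 library left out, with the sign turned without control replicate 1 and without NP137 replicate 2. The causes were not tested. Of 841 alternative values for 63 results, 773 kept direction and side of the threshold, 59 newly passed it, 4 no longer passed it and 5 reversed. Depth limits NP137 1 most, with 492918 UMIs.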
